A study of Mus musculus with 10 samples.

Results

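The genes described here, grouped under the working name of tubule-type absorptive genes, are 8 transcripts for endocytic receptors, a urea transporter, membrane and trafficking proteins and secreted proteins: Cubn, Lrp2, Slc14a2, Cpn1, Hp, Mal2, Gdpd2 and Kif12. They are 8 of the 19505 named genes measured on expression arrays of cultured mouse Wolffian ducts. All but Lrp2 were chosen because their signal was higher with cyclopamine than with SAG, and Lrp2 was added as the partner receptor of Cubn. The difference between cyclopamine and SAG is therefore what chose 7 of them and is given for those genes as a description with no test. The comparisons with vehicle share arrays with it and are not independent of the choice.

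The Wolffian duct is the embryonic duct that forms the epididymis and vas deferens. The source label of every array reads pronephros, and the growth protocol names Wolffian ducts taken at 16.5 days post-coitum and held for 72 h at an air-liquid interface. Cyclopamine binds and inhibits Smoothened, the membrane protein that relays Hedgehog signals, and SAG is a Smoothened agonist. The 3 groups were ducts in culture medium alone, labelled vehicle or control (n = 3), ducts with 0.5 µM SAG (n = 4) and ducts with 25 µM cyclopamine (n = 3). The sources used here do not state the strain, genotype or sex of the embryos, the number of ducts behind each RNA sample or the solvent of the compounds. The replicates are called biological, but whether they came from separate embryos, litters or cultures is not stated, so the p-values measure the spread between these RNA samples, which may be technical. Whole ducts hold epithelium and the mesenchyme around it, and in such bulk samples fewer cells of a type and less RNA per cell cannot be told apart.

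Absorptive epithelia take up filtered or luminal solutes through their apical membrane. Cubilin, the product of Cubn, and megalin, the product of Lrp2, are large apical receptors that bind proteins, vitamins and lipoproteins and carry them into clathrin-coated pits. Cubilin has no membrane-spanning stretch of its own and depends on amnionless (Amn) to reach the surface. Both receptors are known from the kidney proximal tubule and also from the epithelium of the efferent ducts and epididymis, which reabsorb fluid and proteins from the lumen. Slc14a2 encodes the UT-A urea transporters of the kidney tubule. Mal2 encodes a membrane protein of apical transcytosis, Gdpd2 a glycerophosphodiester phosphodiesterase of the cell surface and Kif12 a kinesin motor linked to cystic kidney disease. Cpn1 encodes the catalytic subunit of carboxypeptidase N, which trims kinins and complement peptides, and Hp encodes haptoglobin, which binds free haemoglobin.

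The values were log2 signals, so a difference of 1 is a change of 2-fold, and each of the 8 genes had 1 probe set. Signals ran from 2.95 to 18.7 over all probe sets, with the lower quartile of probe set means at 5.19 and the median at 7.62. Array medians lay between 7.55 and 7.70. No detection calls were used, so a value near the lower quartile may be background. The number of arrays limits the precision. Differences were tested with limma over all 22206 probe sets, and a gene was said to have risen or fallen only where the Benjamini-Hochberg adjusted p was under 0.05.

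The promoter is the sequence around the start of transcription. The promoters below are shown because these 3 genes stood apart from one another in the results. Cpn1 rose more than 20-fold with cyclopamine, Cubn was the dimmest of the 8 and Lrp2 was its brighter partner. RefSeq on build GRCm38.p6 gave promoters, from 250 bases before to 50 bases after the transcription start, for 5 of the 8 genes. Slc14a2, Hp and Mal2 were not matched. The Cpn1 promoter lies at chr19:43986471-43986770, the Cubn promoter at chr2:13491827-13492126 and the Lrp2 promoter at chr2:69585980-69586279, all on the minus strand. Their capitals mark CG dinucleotides, the sites of DNA methylation.
Cpn1: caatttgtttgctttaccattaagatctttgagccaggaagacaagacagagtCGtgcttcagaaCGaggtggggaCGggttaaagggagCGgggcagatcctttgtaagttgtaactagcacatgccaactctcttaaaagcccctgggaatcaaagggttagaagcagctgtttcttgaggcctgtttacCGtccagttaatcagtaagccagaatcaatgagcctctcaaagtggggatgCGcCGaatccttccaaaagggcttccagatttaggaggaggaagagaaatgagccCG
Cubn: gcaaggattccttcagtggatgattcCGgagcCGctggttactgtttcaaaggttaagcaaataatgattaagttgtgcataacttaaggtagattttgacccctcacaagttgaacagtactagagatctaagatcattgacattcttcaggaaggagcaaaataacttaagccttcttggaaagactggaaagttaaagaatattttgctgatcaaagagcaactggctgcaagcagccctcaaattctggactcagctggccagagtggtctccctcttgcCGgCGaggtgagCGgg
Lrp2: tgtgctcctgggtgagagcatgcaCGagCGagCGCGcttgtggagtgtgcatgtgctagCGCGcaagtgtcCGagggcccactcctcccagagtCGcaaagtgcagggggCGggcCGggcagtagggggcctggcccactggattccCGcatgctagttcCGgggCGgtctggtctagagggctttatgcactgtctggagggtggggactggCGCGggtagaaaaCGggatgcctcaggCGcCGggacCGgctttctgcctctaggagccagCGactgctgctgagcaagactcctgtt
The partner receptors had promoters of unlike composition. The Lrp2 sequence held 20 CG dinucleotides at a GC content of 65.0%, and the Cubn sequence held 5 at 44.3%, beside medians of 7 and 52.7% over all 32851 promoters of the same length. The Cpn1 promoter held 8 CG dinucleotides at 48.0% GC. The first of the 2 Gdpd2 promoters held TATAAA at position -207 from the transcription start. Over all promoters, 13.6% held these letters at any position. None of the 6 promoters of these genes held GACCACCCA (the GLI consensus of Hedgehog signalling, in 0.253% of all promoters), CAAAGTCCA (an HNF4 site, in 0.475%) or AACCGGTT (a grainyhead-like site, in 0.146%). Both strands were searched and no motif overlapped another. A match, or the lack of one, is a description of the letters only.

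Against vehicle, 6 of the 8 genes rose with cyclopamine: Slc14a2, Cpn1, Cubn, Lrp2, Mal2 and Gdpd2. Over all probe sets, 2.17% were called higher in the same comparison. The cyclopamine arrays lay wholly above the vehicle arrays for 7 of the 8 genes, every one but Hp, against 11.2% of all probe sets. The median change of the 8 was 1.46 on the log2 scale, beside 0.02 over all genes. These shares describe genes that were chosen for high signal with cyclopamine.

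**Figure D1:**
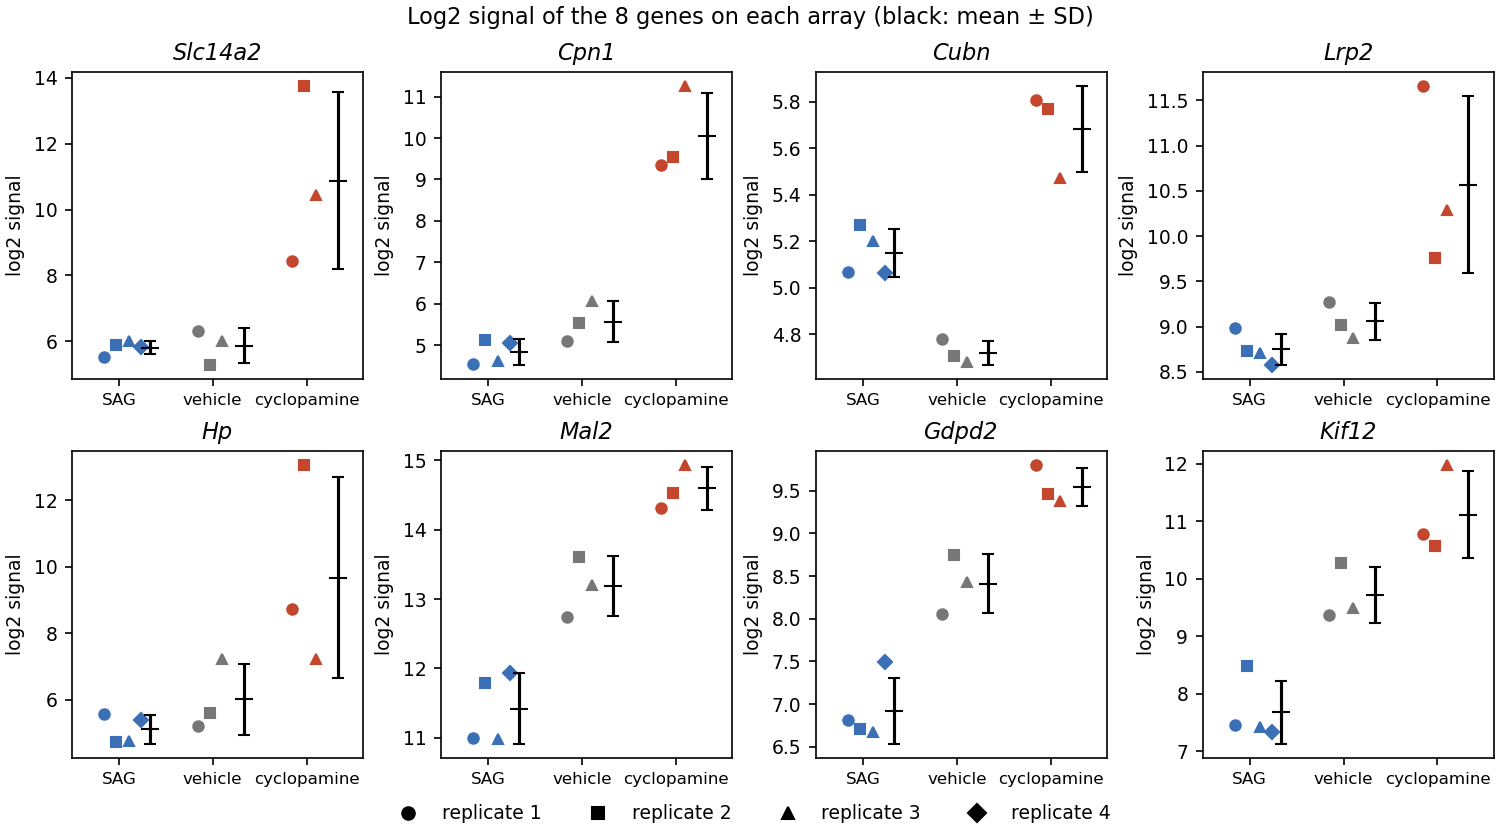
Log2 signal (vertical axes) of each of the 8 genes on the 10 arrays, with groups on the horizontal axes, 1 point per array, and black marks for the group mean ± SD. Slc14a2, Cpn1, Lrp2 and Hp had overlapping vehicle and SAG arrays. Mal2, Gdpd2 and Kif12 stepped up from SAG through vehicle to cyclopamine, and Cubn was lowest in vehicle.

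Cubn, the peripheral endocytic receptor, was dim on every array. Its log2 signals were 4.78, 4.71 and 4.68 with vehicle, 5.07, 5.27, 5.20 and 5.06 with SAG, and 5.81, 5.77 and 5.47 with cyclopamine. The 3 groups did not overlap, and vehicle was the lowest of them. Cubn rose with cyclopamine by 0.96 ± 0.13 (SE; 1.95-fold; limma adjusted p = 0.00370), from 4.72 ± 0.05 (SD, n = 3) to 5.68 ± 0.18 (SD, n = 3). The call held without each array in turn, and Cubn was not tested where the dimmest 25% of probe sets were left out. With SAG the difference from vehicle was 0.43 ± 0.13 (limma adjusted p = 0.196). Vehicle lay below the lower quartile of all probe sets (5.19) and SAG on either side of it, so these are small differences between dim signals.

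Lrp2, the membrane-spanning partner, was measured at a higher signal. Its log2 values were 9.28, 9.02 and 8.88 with vehicle, 8.99, 8.72, 8.70 and 8.58 with SAG, and 11.66, 9.76 and 10.29 with cyclopamine. All 3 cyclopamine arrays were above all others, while vehicle and SAG overlapped. Lrp2 rose with cyclopamine by 1.51 ± 0.38 over vehicle (SE; 2.85-fold; limma adjusted p = 0.0456). That call was lost in 8 of the 10 fits that left out 1 array: without vehicle replicate 1, 2 or 3 (adjusted p = 0.0991, 0.129 and 0.130), without SAG replicate 1, 2, 3 or 4 (0.0577, 0.0682, 0.0694 and 0.0661) and without cyclopamine replicate 3 (0.0751). Without cyclopamine replicate 1, the highest array, the difference was 0.97. It was lost as well in the fit of these groups alone (adjusted p = 0.141). Lrp2 was added as the partner of Cubn and not for its difference between cyclopamine and SAG. That difference was 1.82 ± 0.35 (3.53-fold, limma adjusted p = 0.00692), where 5.92% of all probe sets were called higher. The members were chosen with earlier results of these data known, so this test cannot be taken as independent of the choice.

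Slc14a2 had the largest increase of all 22206 probe sets with cyclopamine against vehicle. Its log2 values were 6.32, 5.29 and 6.01 with vehicle and 5.54, 5.89, 6.01 and 5.82 with SAG. On the cyclopamine arrays they were 8.43, 13.75 and 10.44, all above the other groups but more than 5 log2 units apart. Slc14a2 rose by 5.0 ± 0.97 (SE; 32.0-fold; 95% interval 2.85 to 7.15; limma adjusted p = 0.0167). Without cyclopamine replicate 2, the highest array, the rise was 3.56, and without replicate 1 it was 6.22. The call was lost without vehicle replicate 1 or 2 (adjusted p = 0.0510 and 0.0631) and in the fit of these groups alone (0.0790). Vehicle and SAG could not be told apart for this gene, with a difference of -0.06 ± 0.91 and a 95% interval of -2.08 to 1.95. That interval uses a spread pooled over all groups, and the SD was 0.53 with vehicle, 0.20 with SAG and 2.68 with cyclopamine.

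The 2 secreted proteins differed in how steady they were over the cyclopamine arrays. Cpn1 had log2 values of 5.10, 5.53 and 6.07 with vehicle, 4.53, 5.14, 4.61 and 5.06 with SAG, and 9.36, 9.55 and 11.25 with cyclopamine. The lowest cyclopamine array was more than 3 log2 units above the highest of the others. Cpn1 rose by 4.48 ± 0.44 (SE; 22.3-fold; limma adjusted p = 0.000462), the 4th largest increase of all probe sets. The rise was 3.88 without cyclopamine replicate 3, and the call held in every alternative fit that was run.

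Hp had log2 values of 5.20, 5.61 and 7.22 with vehicle and 5.59, 4.74, 4.75 and 5.38 with SAG. With cyclopamine they were 8.74, 13.06 and 7.22, so that cyclopamine replicate 3 lay level with vehicle replicate 3 and the groups overlapped. The mean difference of 3.66 ± 1.15 (12.6-fold) did not pass (limma adjusted p = 0.105). It passed without cyclopamine replicate 3 (4.89; adjusted p = 0.0358), and without cyclopamine replicate 2 the difference was 1.97. Over all the alternatives that were run, its adjusted p ran from 0.0358 to 0.264.

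The 3 remaining genes all fell with SAG, and Mal2 and Gdpd2 rose with cyclopamine. Mal2, the apical transcytosis protein, had log2 values of 12.75, 13.61 and 13.20 with vehicle, 10.996, 11.79, 10.98 and 11.93 with SAG, and 14.31, 14.53 and 14.93 with cyclopamine. The groups did not overlap. Mal2 rose with cyclopamine by 1.41 ± 0.31 (SE; 2.65-fold; limma adjusted p = 0.0272), a call lost without vehicle replicate 1 (0.105), vehicle replicate 3 (0.0738) or cyclopamine replicate 3 (0.0869). It fell with SAG by 1.76 ± 0.29 (3.39-fold lower; limma adjusted p = 0.0228), a call lost without vehicle replicate 2 (0.132), vehicle replicate 3 (0.0733) or SAG replicate 3 (0.0659).

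Gdpd2, the cell-surface phosphodiesterase, had log2 values of 8.05, 8.75 and 8.43 with vehicle and 6.81, 6.70, 6.68 and 7.49 with SAG. With cyclopamine they were 9.80, 9.46 and 9.38, and again no groups overlapped. Gdpd2 rose with cyclopamine by 1.13 ± 0.25 (SE; 2.19-fold; limma adjusted p = 0.0267), which did not hold without vehicle replicate 1 (0.102), vehicle replicate 3 (0.0721), cyclopamine replicate 1 (0.0827) or cyclopamine replicate 3 (0.0516). It fell with SAG by 1.49 ± 0.23 (2.81-fold lower; limma adjusted p = 0.0178), which did not hold without vehicle replicate 2 (0.108), vehicle replicate 3 (0.0662), SAG replicate 2 (0.0533) or SAG replicate 3 (0.0602).

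Kif12, the kinesin, had log2 values of 9.37, 10.27 and 9.50 with vehicle, 7.45, 8.48, 7.42 and 7.33 with SAG, and 10.78, 10.57 and 11.97 with cyclopamine. The groups were in the same order as for Mal2 and Gdpd2 and did not overlap. Its difference between cyclopamine and vehicle was 1.40 ± 0.41 (2.63-fold) and did not pass (limma adjusted p = 0.0829, from 0.0503 to 0.232 over the alternatives). Kif12 fell with SAG by 2.04 ± 0.38 (4.11-fold lower; limma adjusted p = 0.0426), the largest SAG difference among the 8. That call was lost without any 1 of the 3 vehicle arrays (0.0996, 0.220 and 0.0936), without SAG replicate 1, 3 or 4 (0.0885, 0.118 and 0.121) and without cyclopamine replicate 1 (0.0547).

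In the comparison of SAG with vehicle, 3 of the 8 genes thus fell and none rose. Over all probe sets 0.279% were called lower. The SAG arrays lay wholly below vehicle for the same 3 genes (6.63% of all probe sets) and wholly above it for Cubn (6.25%). The 4 genes with no call and overlapping arrays were Slc14a2, Cpn1 (-0.74 ± 0.41, limma adjusted p = 0.574), Lrp2 (-0.31 ± 0.35, 0.814) and Hp (-0.90 ± 1.08, 0.822). Their 95% intervals, which use a spread pooled over all 3 groups, reached down to -2.08, -1.65, -1.09 and -3.28. A difference of the size seen for Mal2 lay within the pooled interval for Slc14a2 and Hp and outside it for Cpn1 and Lrp2. The SD of Slc14a2 was 2.68 with cyclopamine, 0.53 with vehicle and 0.20 with SAG, and that of Hp was 3.03, 1.07 and 0.43. For Slc14a2 and Hp the interval is thus widened by the cyclopamine arrays and does not measure the spread of vehicle and SAG alone. The median SAG change of the 8 was -0.82, beside 0.01 over all genes.

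**Figure D2:**
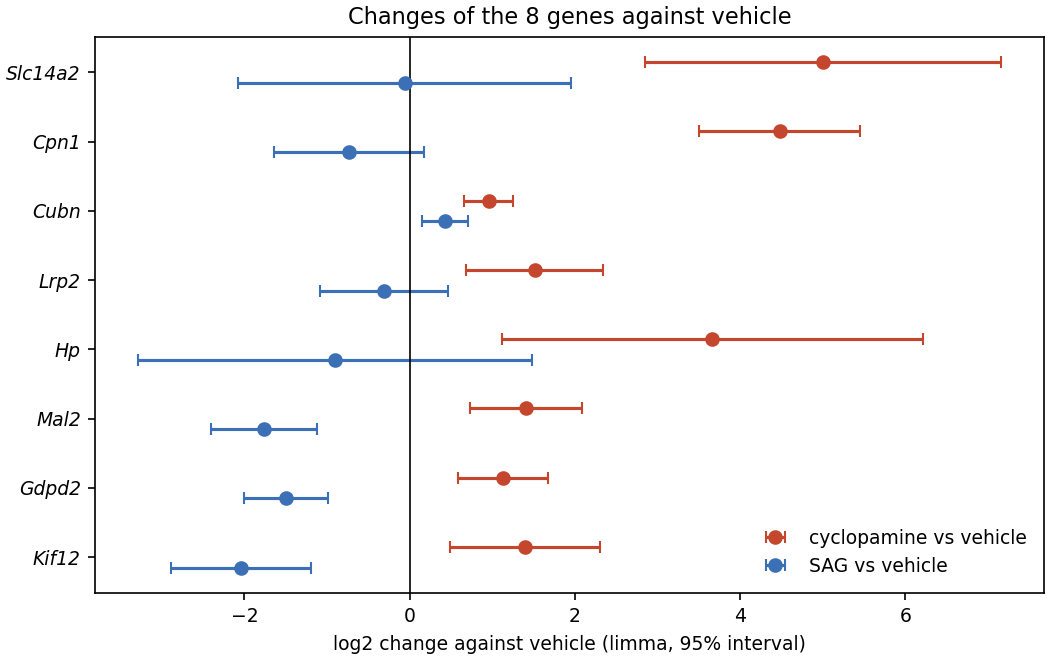
Log2 change against vehicle (horizontal axis) for each of the 8 genes (vertical axis), with cyclopamine in red and SAG in blue; points are limma estimates and bars their 95% intervals. Slc14a2, Cpn1 and Hp had the largest cyclopamine differences, and Mal2, Gdpd2 and Kif12 the largest SAG differences.

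Cyclopamine minus SAG, the difference that chose all but Lrp2, was 5.22 for Cpn1, 5.06 for Slc14a2, 4.56 for Hp, 3.44 for Kif12, 3.17 for Mal2, 2.62 for Gdpd2 and 0.53 for Cubn on the log2 scale. The arrays of these 2 groups did not overlap for any of the 8, against 10.5% of all probe sets, and nothing is read from that count. Of all named genes, 878 (4.50%) were higher by more than 1 and 215 (1.10%) by more than 2, so that Cubn lay outside both bounds and the 6 others that were chosen on this difference inside both. The place of vehicle between the compounds separated the genes by description. With SAG set at 0% and cyclopamine at 100%, vehicle stood at 1.21% for Slc14a2, 14.1% for Cpn1, 16.9% for Lrp2 and 19.7% for Hp. It stood at 55.6% for Mal2, 56.8% for Gdpd2 and 59.4% for Kif12. For Cubn it stood at -80.7%, below both.

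A further comparison sets the 7 treated arrays, equally weighted, against the 3 vehicle arrays. Its error is independent of the choosing difference only where the groups have equal spread. The SD of Slc14a2, Cpn1 and Hp was 2.68, 1.04 and 3.03 with cyclopamine, against 0.20, 0.31 and 0.43 with SAG. Independence from the choice can therefore not be assumed for those genes. None of the 8 genes passed this comparison (limma), against 0.216% of all probe sets called. An unadjusted p under 0.05 was found for 3 of the 8, and for 2233 of all probe sets. Cubn came closest, at 0.66 ± 0.11 (limma adjusted p = 0.0568), with all 7 treated arrays above all 3 vehicle arrays, as for 1.35% of all probe sets. It passed when each array was centred on its median (0.73, adjusted p = 0.0335) and when arrays were weighted by quality (0.67, adjusted p = 0.0313). Cpn1 stood at 1.5 ± 0.37 (limma adjusted p = 0.182) and Slc14a2 at 2.11 ± 0.82 (0.426). Mal2, Gdpd2 and Kif12 stood at -0.40, -0.37 and -0.57, with adjusted p of 0.648, 0.607 and 0.631.

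The 8 genes did not peak on the same cyclopamine array. Slc14a2 and Hp were 2.87 and 3.38 log2 units above their group means on cyclopamine replicate 2, where Lrp2 deviated by -0.81. Lrp2 was 1.09 above on replicate 1, where Slc14a2 deviated by -2.44. Cpn1 and Kif12 were 1.20 and 0.87 above on replicate 3, where Hp deviated by -2.45. Over the 10 arrays the Pearson correlation was above 0 for all 28 pairs (0.37 to 0.97), which the choice of genes by group sets. After the group means were removed, 10 of the 28 pairs stayed above 0 and the median was -0.10. Over all 28 pairs the lowest was -0.86, between Slc14a2 and Lrp2, and the highest 0.72, between Slc14a2 and Hp. Each was taken over the 10 arrays, and all genes on an array were measured in the same RNA sample.

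**Figure D3:**
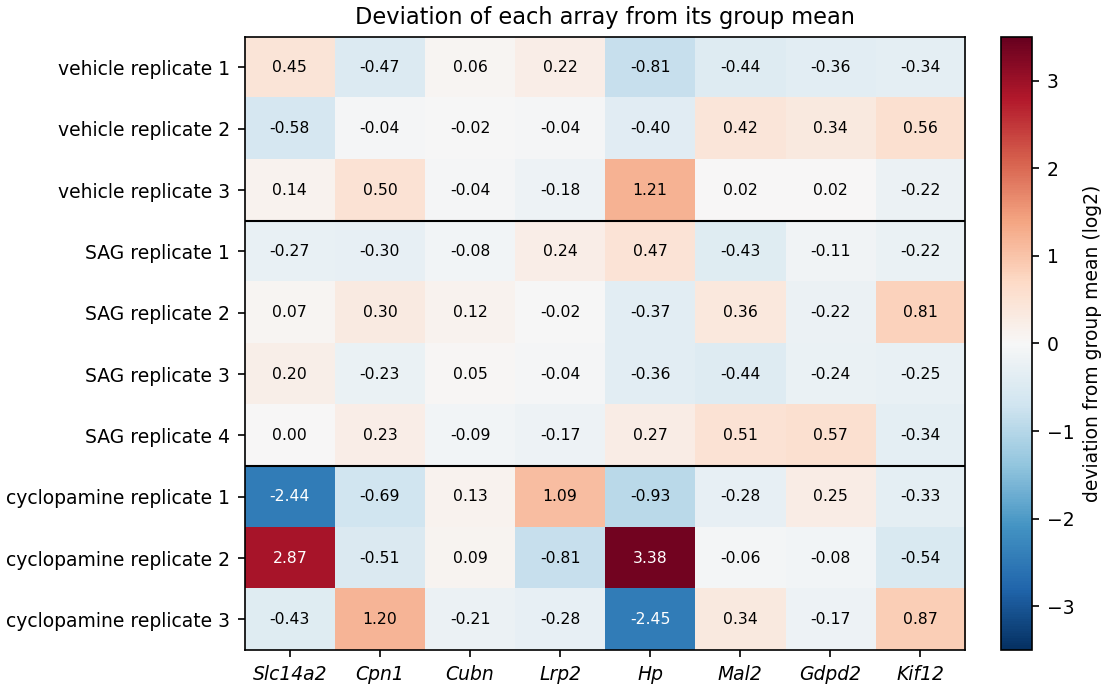
Deviation of each array (vertical axis) from the mean of its group for each of the 8 genes (horizontal axis), as colour on the log2 scale. The widest deviations lie on the cyclopamine arrays, for Slc14a2 and Hp up to 2.87 and 3.38 on replicate 2, and for Lrp2 1.09 on replicate 1.

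Markers of the tissues in the cultures moved with the treatments. The mean log2 signal of 10 duct epithelium markers (cadherin, keratin and claudin genes among them) ran from 11.7 to 12.6 with vehicle, from 10.6 to 11.4 with SAG and from 12.6 to 13.7 with cyclopamine. Of these 10, 4 rose with cyclopamine (Krt18, Cldn3, Cldn4 and Esrp1) and 2 fell with SAG (Cldn7 and Esrp1). Their summed signal, on the log2 scale, was 15.7 to 16.5, 14.8 to 15.4 and 16.7 to 17.7 in the same order. Of 7 smooth muscle markers, 6 fell with cyclopamine, and their summed log2 signal was 17.3 to 17.5 with vehicle, 17.1 to 17.4 with SAG and 14.99 to 15.2 with cyclopamine. Of 8 mesenchyme markers measured, 3 fell (summed 19.2 to 19.3, 19.4 to 19.5 and 18.6 to 18.7). The part of these shifts in the differences of the 8 genes was not tested.

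The mean of the epithelium markers was also subtracted from each of the 8 genes on each array. This lowers the cyclopamine difference of every gene by the same amount, so the order of the genes cannot change. The marker mean differed by 1.17 between cyclopamine and vehicle and by -1.12 between SAG and vehicle. After that shift was subtracted on each array, the cyclopamine difference was 3.83 for Slc14a2, 3.31 for Cpn1 and 2.49 for Hp. Without cyclopamine replicate 2, where Hp was highest, it was 0.46 for Hp, 2.06 for Slc14a2 and 3.23 for Cpn1. Over all 3 cyclopamine arrays it was 0.34 for Lrp2, 0.23 for Mal2, 0.22 for Kif12, -0.04 for Gdpd2 and -0.21 for Cubn. On this scale the cyclopamine arrays lay wholly above vehicle for Slc14a2 and Cpn1 alone, and the SAG arrays wholly below vehicle for Kif12 alone (-0.93). With SAG the difference was above 0 for Cubn (1.54), Slc14a2 (1.05), Lrp2 (0.81), Cpn1 (0.38) and Hp (0.22). The SAG arrays lay wholly above vehicle for Cubn and Slc14a2. Taking away the marker shift of -1.12 moves every SAG difference upwards. Before it, the SAG differences were 0.43 for Cubn, -0.06 for Slc14a2, -0.31 for Lrp2, -0.74 for Cpn1 and -0.90 for Hp. A SAG value above 0 on this scale is therefore not by itself a rise in signal. This scale was chosen after the values were seen and carries no test. The share of all probe sets whose arrays lay apart on this scale was not computed, so nothing is read from these overlaps.

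Vehicle replicate 2 and cyclopamine replicate 2 had nearly the same epithelium marker mean, 12.60 and 12.57, and were paired for that reason after the values were seen. The match holds for the mean only. By the summed log2 signal of these markers, all cyclopamine arrays (16.7 to 17.7) lay above all vehicle arrays (15.7 to 16.5). Cyclopamine replicate 2 was also the array where Slc14a2 and Hp were highest, at 2.87 and 3.38 above their group means. Slc14a2 was 5.29 on the former and 13.75 on the latter, Hp 5.61 and 13.06, and Cpn1 5.53 and 9.55. The steps were smaller for Cubn (4.71 and 5.77), Mal2 (13.61 and 14.53), Lrp2 (9.02 and 9.76), Gdpd2 (8.75 and 9.46) and Kif12 (10.27 and 10.57). All 8 genes were higher on the cyclopamine array of this pair, which is 1 array of each group. The cyclopamine arrays lay wholly above vehicle for every gene but Hp, and Hp was highest on this array. The direction was therefore set before the pair was picked, and nothing is read from it.

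**Figure D4:**
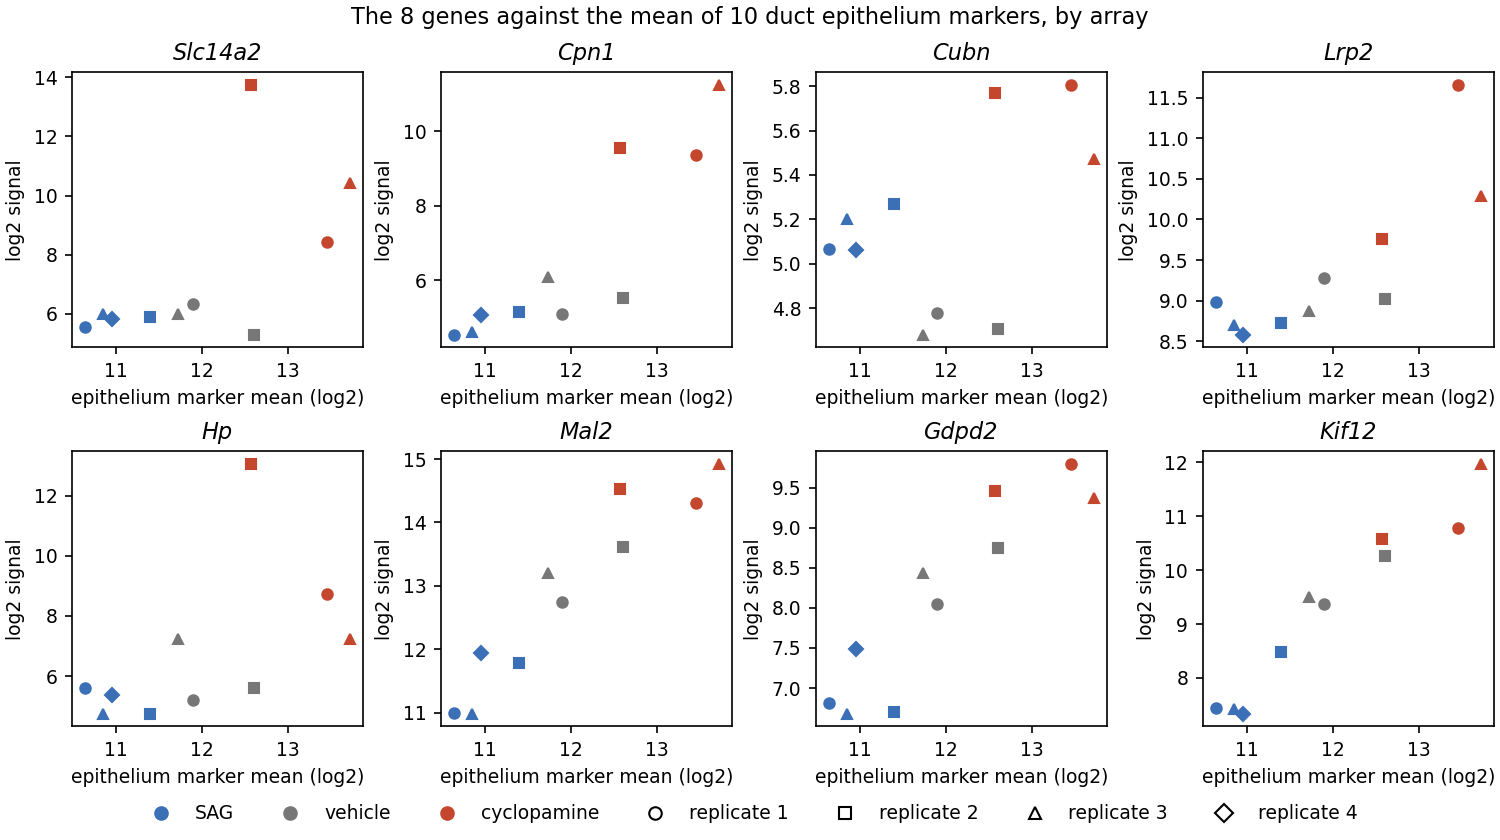
Log2 signal of each of the 8 genes (vertical axes) against the mean log2 signal of 10 duct epithelium markers (horizontal axes), 1 point per array, with colour for the group and shape for the replicate. Mal2, Gdpd2 and Kif12 climb along the marker mean from SAG to cyclopamine. Slc14a2, Cpn1 and Hp differ most between cyclopamine replicate 2 and vehicle replicate 2, which share a marker mean near 12.6 but not a summed marker signal. Slc14a2 and Hp were highest on that cyclopamine array.

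Markers of cell types outside the duct were also measured, since Hp is made by liver and by myeloid cells and several of the 8 by the kidney. Of 9 hepatocyte markers none passed with cyclopamine in limma (2 with an unadjusted p under 0.05), and their summed log2 signal was 8.89 to 9.08 with vehicle, 8.56 to 9.05 with SAG and 9.13 to 12.0 with cyclopamine. The upper end came from Ttr, at 11.86, 6.79 and 9.43 on the cyclopamine arrays, while Alb and Afp had group means of 5.35 to 6.24. Of 8 macrophage markers 1 rose, Cd14, by 2.33 (limma adjusted p = 0.00849), and the summed log2 signal was 14.7 to 15.4, 14.3 to 16.2 and 15.9 to 16.9. Of 7 granulocyte markers none passed (limma; 0 with an unadjusted p under 0.05), with sums of 7.79 to 7.87, 7.92 to 9.64 and 7.57 to 8.03. Of 5 markers of nephron progenitors and podocytes none passed (limma; 0 unadjusted), with sums of 12.1 to 12.2, 11.9 to 12.5 and 12.0 to 12.98, and Six2, a defining gene of nephron progenitors, had group means of 5.38 to 5.45. Of 5 endothelial markers 1 fell, and of 8 gonad markers none passed (limma; 1 unadjusted). The part of the macrophage and hepatocyte signals in the Hp difference was not tested.

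The genes of the uptake pathway around Cubn and Lrp2 did not rise as a set. Of 14 measured genes of the endocytic apparatus, 1 rose with cyclopamine (1 with an unadjusted p under 0.05) and the median change was 0.04. The gene was Clcn5, the endosomal chloride-proton exchanger whose loss gives protein in the urine: 12.38, 12.43 and 12.69 with vehicle, 12.32, 12.45, 12.19 and 12.28 with SAG, and 13.37, 13.38 and 13.42 with cyclopamine. It rose by 0.89 ± 0.13 (limma adjusted p = 0.00467). Amn, which carries cubilin to the surface, differed by 0.39 ± 0.23 (limma adjusted p = 0.416), with overlapping arrays at 6.99, 6.63 and 7.09 against 7.81, 7.16 and 6.91. Dab2, the adaptor of megalin, had a mean of 14.56 in both groups. Myo6, the motor that moves endocytic vesicles inward, differed by 0.57 from vehicle (0.488) and was higher than with SAG by 1.67 (limma adjusted p = 0.0141), a call lost without cyclopamine replicate 1 (0.0616) or 3 (0.0624).

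Among 11 measured ligands of the receptors, 1 rose with cyclopamine and 3 had an unadjusted p under 0.05. Tcn2, the plasma carrier of vitamin B12 that megalin takes up, rose by 0.91 ± 0.19 (limma adjusted p = 0.0211), which did not hold when vehicle replicate 2 (0.0585) or 3 (0.0645) was left out, or cyclopamine replicate 1 (0.0579) or 3 (0.0626). Clu, the secreted chaperone clusterin, differed by 0.69 ± 0.18 (0.0604). Rbp4, the retinol carrier, differed by -1.0 ± 0.36 (0.159). Against SAG, 2 of the 11 were higher with cyclopamine, Tcn2 (1.39, limma adjusted p = 0.000521) and Clu (1.37, 0.000527). Rbp4 was lower with cyclopamine than with SAG (-1.89, limma adjusted p = 0.00446). These calls against SAG held without each array in turn. In that comparison 5.92% of all probe sets were called higher and 5.42% lower.

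Among 12 genes of urea and water transport, 1 rose with cyclopamine and 6 had an unadjusted p under 0.05. Aqp9, a channel for water, glycerol and urea that is known from epididymal epithelium, had values of 7.17, 7.82 and 6.77 with vehicle and 9.21, 8.69 and 8.81 with cyclopamine. It rose by 1.65 ± 0.25 (limma adjusted p = 0.00533), and SAG gave 6.69, 6.81, 7.16 and 6.98. Slc14a1, the UT-B urea transporter and nearest relative of Slc14a2, was at 10.88, 10.94 and 9.53 with vehicle, 7.48, 8.35, 7.56 and 8.0 with SAG, and 10.71, 13.23 and 12.24 with cyclopamine. Its vehicle arrays lay above all SAG arrays and overlapped cyclopamine, unlike Slc14a2, whose vehicle and SAG arrays overlapped. The Slc14a1 differences from vehicle did not pass (1.61 ± 0.57 with cyclopamine, limma adjusted p = 0.148; -2.60 with SAG, 0.0566), while cyclopamine was higher than SAG by 4.21 (0.000523). Without cyclopamine replicate 1 its difference from vehicle passed (2.28, adjusted p = 0.0278).

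Genes that define kidney tubule segments had no call against vehicle. Of 14 proximal tubule genes measured, none passed with cyclopamine (limma), 0 had an unadjusted p under 0.05, and the median change was 0.11. Slc5a1, the sodium-glucose cotransporter, differed by 0.59 ± 0.32 (0.357) and Fbp1, a gluconeogenic enzyme, by -1.15 ± 0.52 (0.269). Of 14 distal tubule and collecting duct genes none passed (limma), with 4 at an unadjusted p under 0.05, among them Foxi1, the regulator of intercalated cells (0.72 ± 0.22, 0.0985), and the vasopressin receptor gene Avpr1a (1.20 ± 0.45, 0.176). Against SAG, 1 of the proximal and 2 of the distal genes were higher with cyclopamine. These were Slc27a2, a fatty acid transport protein (0.96, limma adjusted p = 0.0207), the sodium channel subunit Scnn1a (0.92, 0.0245) and Avpr1a (1.85, 0.0163). The Avpr1a call was lost without cyclopamine replicate 1 (0.0613) or 2 (0.0503). The Slc27a2 call was lost without SAG replicate 2 (0.0510) or 4 (0.0520), or cyclopamine replicate 1 (0.0660) or 3 (0.0648), and the Scnn1a call without SAG replicate 1 (0.0503) or 4 (0.0574), or cyclopamine replicate 1 (0.0906) or 3 (0.0925). The name tubule-type was thus not matched by these segment markers in the comparison with vehicle, and the difference between them and the 8 genes was not tested. Of 10 genes of epididymal principal cells, 1 rose (1 unadjusted): Adam7, a surface protein of the epididymis, at 5.47, 5.47 and 5.25 with vehicle and 7.57, 6.18 and 6.34 with cyclopamine (1.30 ± 0.31, limma adjusted p = 0.0367). That call was lost without vehicle replicate 1, 2 or 3 (0.0981, 0.0928 and 0.109) and without SAG replicate 3 or 4 (0.0585 and 0.0547).

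Of 12 measured transcription factors of tubule and duct epithelium, 6 rose with cyclopamine (9 with an unadjusted p under 0.05), with a median change of 1.01 beside 0.02 over all genes. Pax2, a regulator of Wolffian duct and kidney formation, was at 9.79, 10.68 and 9.53 with vehicle, 8.26, 8.50, 8.30 and 8.0 with SAG, and 12.49, 14.61 and 13.33 with cyclopamine. It rose by 3.48 ± 0.45 (limma adjusted p = 0.00264). Its paralogue Pax8 rose by 1.34 ± 0.23 (0.00974), and both calls held without each array in turn.

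The other factors named by the rule were less steady. Ehf, an epithelial ETS factor, rose by 1.81 ± 0.38 (limma adjusted p = 0.0229), which did not hold when vehicle replicate 1 (0.0887) or 3 (0.0686) was left out, or cyclopamine replicate 1 (0.0615) or 3 (0.0748). Elf5, a related factor, rose by 2.26 ± 0.49 (0.0268), which did not hold without vehicle replicate 1 (0.0843), 2 (0.0616) or 3 (0.0874). Without cyclopamine replicate 2 the rise of Elf5 was 1.54. With SAG none of the 12 passed (limma; 8 with an unadjusted p under 0.05), all 12 changes were below 0, and the median was -0.91; Elf5 and Hnf4g (both -0.07) were above 0 when each array was centred on its median.

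Of 7 measured genes linked to cystic kidney disease and tubule function, a list drawn up around Kif12, 2 rose with cyclopamine and 1 fell (5 unadjusted). Fxyd2, the gamma subunit of the sodium pump, was at 10.66, 9.84 and 10.34 with vehicle, 9.62, 10.07, 10.42 and 10.27 with SAG, and 13.72, 14.30 and 13.64 with cyclopamine. It rose by 3.61 ± 0.27 (limma adjusted p = 6.49e-05). Cltrn, collectrin, an apical partner of amino acid transporters, rose by 2.41 ± 0.33 (0.00305). Like Slc14a2, these genes had overlapping vehicle and SAG arrays. Against 2.95% of all probe sets called lower, Pkd1, polycystin-1, fell by 0.99 ± 0.20 (limma adjusted p = 0.0200), a call lost when vehicle replicate 1 (0.0743) or 3 (0.0693) was left out, or cyclopamine replicate 3 (0.0531).

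With SAG 1 of these 7 fell. Glis3, a zinc-finger factor of cystic kidney disease, stood at 10.81, 10.45 and 10.24 with vehicle and 9.46, 9.34, 9.88 and 9.09 with SAG, and fell by 1.05 in log2 units (limma, adjusted p = 0.0494). That call was lost without vehicle replicate 1, 2 or 3 (0.186, 0.200 and 0.0698), SAG replicate 1, 2 or 4 (0.0901, 0.116 and 0.121) or cyclopamine replicate 1 or 3 (0.0701 and 0.0576). It was lost when each array was centred on its median (0.0683).

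Relatives of the secreted proteins had no call with cyclopamine against vehicle. Of 16 genes of the haptoglobin route and acute phase none passed with cyclopamine (limma; 4 unadjusted). Saa3, an acute phase apolipoprotein, was at 7.30, 6.09 and 11.18 with vehicle and 11.85, 15.76 and 9.10 with cyclopamine (4.05 ± 1.60, limma adjusted p = 0.200), and Serpina3n, a protease inhibitor, at 10.60, 10.45 and 12.21 against 13.29, 15.04 and 11.04 (2.04 ± 0.91, 0.260). Like Hp, both had replicate 2 highest and replicate 3 lowest under cyclopamine and replicate 3 highest in vehicle. The lowest vehicle array was replicate 1 for Hp and replicate 2 for Saa3 and Serpina3n. Of 13 regulatory carboxypeptidase and kinin genes none passed (limma; 0 unadjusted), and Cpn2, the carrier subunit of carboxypeptidase N, had group means of 3.66 to 3.79, near the lowest signals on the arrays. With SAG 1 gene of that list fell, Cpxm2, a carboxypeptidase-like protein, by 2.17 (limma adjusted p = 0.0390). It did not hold without vehicle replicate 1, 2 or 3 (0.0886, 0.211 and 0.107), SAG replicate 2, 3 or 4 (0.0835, 0.0702 and 0.0642) or cyclopamine replicate 1 (0.0552). Against SAG, 1 of the 13 was higher with cyclopamine (Cpxm2) and 2 were lower (Bdkrb2 and Cpxm1), where 5.92% of all probe sets were called higher and 5.42% lower. The Cpxm1 call was lost in 5 fits that left out 1 array. The Cpxm2 call against SAG was lost without cyclopamine replicate 3 (limma adjusted p = 0.0539).

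Of 17 genes of the MAL family and apical trafficking, 2 rose with cyclopamine (5 unadjusted). Myo5b, the motor that carries recycling endosomes to the apical surface, rose by 1.28 ± 0.29 (limma adjusted p = 0.0321), and Stx3, the apical fusion protein, by 0.82 ± 0.20 (0.0384). The Myo5b call was lost without vehicle replicate 1 (0.117) or 2 (0.0730), SAG replicate 3 (0.0506) or cyclopamine replicate 1 (0.0921) or 3 (0.0944). The Stx3 call was lost without any 1 array other than cyclopamine replicate 3, with adjusted p from 0.0506 to 0.122. Mal, the relative of Mal2, differed by 0.98 ± 0.38 from vehicle (0.188) and by 1.93 from SAG (0.00517).

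Of the 6 other glycerophosphodiester phosphodiesterases, 1 rose (1 unadjusted): Gdpd1, by 1.02 ± 0.21 (limma adjusted p = 0.0200), which did not hold without any 1 of the vehicle arrays (0.0545, 0.0561 and 0.0719) or without cyclopamine replicate 1 (0.0665) or 3 (0.0670). Of 18 other kinesins none passed (limma; 6 unadjusted), and their median change was -0.15. Kif3a, the ciliary kinesin whose loss gives cystic kidneys, differed by -0.41 ± 0.13 (0.0999). Kif21b stood lower with cyclopamine than with SAG (-1.75, limma adjusted p = 0.00129), where 5.42% of all probe sets were called lower. The SAG comparison gave no call among the lists of endocytosis, ligands, urea and water transport, tubule segments, acute phase, apical trafficking, phosphodiesterases, kinesins and epididymal genes; in these 10 lists 1, 5, 3, 2, 3, 1, 3, 0, 3 and 0 genes had an unadjusted p under 0.05 (limma).

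The genes whose pattern was most like the mean of the 8, each scaled to mean 0 and SD 1 over the 10 arrays, were Lgi3 (Pearson r 0.983), Ap1s3 (0.982), Trpv6 (0.981), Clcn5 (0.981), Myof (0.978), Ppp2r3a (0.973), Pax2 (0.972) and Slc27a1 (0.971). Of 18532 genes compared, 266 had r of at least 0.9, and the 3 groups set most of this likeness. Ap1s3 encodes a subunit of a clathrin adaptor of endosomal sorting, and Trpv6 an epithelial calcium channel. Clcn5 and Pax2 also stood on the lists above. All 8 of these rose with cyclopamine, by 0.71 to 3.48, and none passed with SAG in limma, where all 8 differences were below 0. Lgi3 rose by 2.79 ± 0.28 (limma adjusted p = 0.000555) and Ap1s3 by 2.39 ± 0.22 (0.000308). Since these genes were picked for following the groups, their calls add no test of the pattern.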

How the data were processed

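Total RNA of 10 samples of cultured ducts was labelled and hybridised to Affymetrix whole-transcript arrays, per the labels' protocols. The authors deposited 1 table of log2 values per array. The log2 base was taken from the range of the values, and the summarisation and normalisation are not named in the labels or file header. Of 22206 probe sets, 19572 had 1 gene symbol in the platform annotation, 0 had several and 2634 had none. The values were used as deposited. Group means were fitted to all 10 arrays with limma 3.58.1 in R 4.3.3 (lmFit and eBayes), with p-values adjusted by Benjamini-Hochberg over all probe sets. The fit was tested on simulated data. The members and gene lists were chosen with earlier results of these data known. Of 249 listed genes 227 were measured. Named genes were the 8, up to 4 of each list by smallest p with cyclopamine against vehicle, a choice among listed genes that passed in a comparison with at most 3 calls, and the 8 most alike. Partners named as background were Amn, Dab2, Slc14a1, Cpn2 and Mal. Ttr, Alb, Afp, Six2 and the epithelial markers were named after their values were seen. Alternatives changed the normalisation, array centring, a filter on dim probe sets, the prior variance, array weights, a replicate block, the groups in the fit, the probe set rule and each array left out.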

Additional observations from a re-analysis of the deposited data

Results flagged for a closer look

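In 2 of the 8 genes, 1 SAG array stood apart from the other 3 by Dixon's gap test, which chance meets in about 1 in 20 groups of 4. For Gdpd2, SAG replicate 4 had a log2 value of 7.49 with the nearest at 6.81, a gap of 0.838 of the group's range. For Kif12, SAG replicate 2 had a log2 value of 8.48 with the nearest at 7.45, a gap of 0.902 of the range. The SAG groups of all 8 genes were tested. Both arrays stayed below every vehicle array for these genes. The groups of 3 arrays were not tested.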

How the results depend on the processing

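With each array left out in turn, the number of the 8 genes called ran from 2 to 6 for cyclopamine against vehicle (2 without vehicle replicate 1, 3 without vehicle replicate 3), from 0 to 3 for SAG against vehicle (0 without vehicle replicate 2 or 3 or SAG replicate 3) and stayed at 0 for treated arrays against vehicle. Calls over all probe sets ran from 485 to 1471, beside 1136 as reported, from 45 to 339 (162), and from 1 to 72 (48), and for cyclopamine against SAG from 1843 to 2855 (2518). The replicate block gave 653, 32, 14 and 1613 calls in the same order, with 5 of the 8 genes called for cyclopamine and 2 for SAG; Lrp2 (adjusted p = 0.0505) and Kif12 with SAG (0.186) lost their calls. Arrays of the same number had correlations of -0.19 to 0.24 over 9 pairs and those of different numbers -0.22 to 0.23 over 24, and in 3 of 18 cases an array correlated best with its own number in another group, so the numbers were not taken as pairs. Fits of only the groups compared gave 566 calls for cyclopamine, with 4 of the 8 genes, and 296 for SAG. Array weights gave 313 calls for SAG, 78 for treated arrays and 1 of the 8 genes there; median centring gave 1 of the 8 there too. Centring on array medians moved the all-gene median with SAG to 0.10 and the share of higher calls from 42.4% to 50% with cyclopamine, from 61.7% to 72.4% with SAG and from 12.5% to 24.1% for treated arrays. The SAG difference of Slc14a2 turned positive with centring (0.029) and without vehicle replicate 1, vehicle replicate 3 or SAG replicate 1, in a range of -0.35 to 0.16 over the arrays left out. Among the listed genes followed, 2 uncalled differences with cyclopamine changed sign, Cpz without cyclopamine replicate 1 (-0.017 to 0.63 over the arrays left out) and Gdpd5 without cyclopamine replicate 2 (-0.53 to 0.038). Cpn1 kept its cyclopamine call under every alternative run, and Cubn in all that tested it. The cause of the other changes was not tested. With 3 or 4 arrays a group and no detection calls, it is not known whether dim signals such as those of Cubn lie above background.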
